A study of Mus musculus with 2 samples.

Results

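The heat shock proteins and the DnaJ cochaperones of the mouse heart were described here gene by gene. Members were taken by their symbols, which begin with Hspa, Hspb, Hsp90, Hspd, Hspe, Hsph, Dnaja, Dnajb or Dnajc. The cofactors Hspbp1 and Hspbap1, which share the letters but are no chaperones of these families, were left out. The rule found 72 of the 24542 gene symbols of the table. They were 3 Hsp90 genes, 14 Hsp70 and Hsp110 genes, the 2 chaperonin genes Hspd1 and Hspe1, 8 small heat shock proteins, 4 type A, 13 type B and 28 type C DnaJ proteins. Total RNA had been sequenced from remote left ventricle, the muscle away from the scar and its border, of male C57BL/6 mice. In both groups a permanent ligature had been placed on the left anterior descending (LAD) coronary artery 7 days earlier, so no group without infarction was compared. NRK-2 knockout mice, which lack a muscle kinase that feeds NAD synthesis and is encoded by Nmrk2, were set against littermate controls. No source used here tells how the knockout was made, how old the mice were or whether RNA of several mice was pooled. GEO lists 1 sample per genotype and the table holds 3 numbered libraries for each, called control 1 to 3 and KO 1 to 3, which the labels do not tie to separate animals.

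Heat shock proteins are chaperones that bind unfolded protein and let it fold, cross a membrane or be degraded. Hsp70 works in cycles of ATP hydrolysis, which J proteins (the DnaJ family) start by their J domain and nucleotide exchange factors end, and it passes some clients on to Hsp90. The mitochondrial matrix has its own set, with the Hsp70 mortalin (Hspa9) pulling in and folding imported proteins and the Hsp60 and Hsp10 chaperonin (Hspd1 and Hspe1) enclosing them, while BiP (Hspa5) and Grp94 (Hsp90b1) serve the endoplasmic reticulum. Heart muscle is rich in small heat shock proteins, which hold sarcomere and other proteins without ATP, and the transcription factor Hsf1 raises the inducible members by binding heat shock elements in their promoters.

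Promoters of 4 members are shown because they carry the elements by which these families are known, and because results below turn on these genes. They are RefSeq sequences of GRCm38.p6, the assembly that mm10 stands for, from 250 bases before the start site to the start site. The Hspe1 sequence is cut at the start of its neighbour. Hspd1 (gene ID 15510, chromosome 1 from 55077834 to 55087932) and Hspe1 (gene ID 15528, chromosome 1 from 55088148 to 55091317) lie head to head. At these coordinates the stretch of 215 bases between them lies before the start of each gene. Another promoter window of Hspd1, from 55088194 to 55088493, lies within Hspe1 and shares 4 bases with the Hspe1 window. Capitals mark a 3-arm heat shock element in Hspe1, a 2-arm heat shock element in Hspa1a and Hspa1b, and an endoplasmic reticulum stress element in Hspa5.
Hspe1, plus strand, chr1:55087933-55088147: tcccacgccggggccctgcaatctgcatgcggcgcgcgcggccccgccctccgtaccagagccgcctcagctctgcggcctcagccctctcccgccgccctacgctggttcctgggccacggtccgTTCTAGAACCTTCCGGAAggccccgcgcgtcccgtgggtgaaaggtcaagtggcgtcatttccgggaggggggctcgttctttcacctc
Hspa1a, minus strand, chr17:34972157-34972406: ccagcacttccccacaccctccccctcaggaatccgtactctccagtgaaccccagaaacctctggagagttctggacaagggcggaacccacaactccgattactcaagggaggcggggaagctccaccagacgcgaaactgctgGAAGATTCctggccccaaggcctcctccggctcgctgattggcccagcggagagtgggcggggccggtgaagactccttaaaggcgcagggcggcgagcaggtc
Hspa1b, minus strand, chr17:34959239-34959488: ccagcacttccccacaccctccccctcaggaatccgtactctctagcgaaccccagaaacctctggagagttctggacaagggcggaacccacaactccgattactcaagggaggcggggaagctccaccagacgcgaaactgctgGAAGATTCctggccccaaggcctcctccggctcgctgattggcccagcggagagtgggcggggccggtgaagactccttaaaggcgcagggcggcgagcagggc
Hspa5, plus strand, chr2:34771840-34772089: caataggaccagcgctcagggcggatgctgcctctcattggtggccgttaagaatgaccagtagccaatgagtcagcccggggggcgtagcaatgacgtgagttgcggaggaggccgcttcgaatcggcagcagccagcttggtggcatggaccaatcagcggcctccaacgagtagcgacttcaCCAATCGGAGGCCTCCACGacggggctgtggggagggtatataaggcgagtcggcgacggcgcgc
The capitals of Hspe1 hold 2 overlapping matches, the first of which begins 89 bases before the start site. In Hspa1a and Hspa1b the match begins 104 bases before the start site, and in Hspa5 it begins 65 bases before it. The promoter windows of Hspa1a and Hspa1b, 50 bases after the start site included, were identical at 296 of 300 positions (98.7%).

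Promoter windows were found for 58 of the 72 members. The 2-arm element was searched as GAANNTTC or TTCNNGAA, each of which reads alike on both strands. It occurred in 4946 of all 32851 windows in the table (15.1%) and in 18 of the 75 windows of members. These belonged to 16 members, Dnaja1, Dnaja4, Dnajb4, Dnajb6, Dnajc10, Dnajc27, Dnajc5g, Hspa1a, Hspa1b, Hspb1, Hspb3, Hspb6, Hspb8, Hspd1, Hspe1 and Hsph1. The 3-arm element, GAANNTTCNNGAA or on the other strand TTCNNGAANNTTC, always contains the 2-arm element. It occurred in 0.603% of all windows and in windows of 4 members, Hspd1, Hspe1, Hsph1 and Dnajb6, of which Hspd1 and Hspe1 share their stretch. The stress element, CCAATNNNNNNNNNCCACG or on the other strand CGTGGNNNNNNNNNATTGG, occurred in 0.119% of all windows and in windows of 3 members, Hspa5, Hsp90b1 and Dnajc3. These are letter matches, and binding was not measured.

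Levels are given as CPM (a gene's reads relative to all reads of its library, with a TMM factor) when libraries are compared, and as FPKM, which divides by transcript length, when genes are compared. Depth ran from 22377348 to 22831189 counted reads in the control libraries and from 26975513 to 33086384 in the libraries labelled KO. Nmrk2 was at 15.1, 13.01 and 4.79 CPM in control 1, 2 and 3, and at 27.9, 0.252 and 0 CPM in the libraries labelled KO 1, 2 and 3. The library labelled KO 1 thus held more Nmrk2 than any control library, against its label, and each direction below rests on libraries as labelled. All 13 cardiomyocyte markers of a fixed list were fitted lower in the libraries labelled KO, 0 of them past the test, with a median log2 fold change of -0.99. They summed to 83220 to 134271 CPM in the control libraries and to 47740 to 77195 CPM in those labelled KO. The 10 fibroblast markers summed to 7074 to 20328 CPM and to 31617 to 45141 CPM in the same order, with 9 fitted higher, Dpt fitted lower and Postn called higher. Of 10 endothelial markers 4 were fitted higher and 6 lower (median log2 fold change -0.11), with Aqp1 called lower. Of 8 smooth muscle and pericyte markers 5 were fitted higher and 3 lower (median log2 fold change 0.08), with Pdgfrb called higher. Of 10 macrophage markers 8 were fitted higher, and of 13 immediate early genes 11 were fitted higher, with Egr2 called. Control 3 stood apart from the other control libraries, with 223 CPM of T and B cell markers against 6.87 and 10.6 CPM. It held 903 CPM of adipocyte markers against 114 and 57.4 CPM. In KO 1, 2 and 3 the T and B cell markers summed to 10.8, 51.8 and 10.04 CPM. The adipocyte markers summed to 232, 428 and 2.63 CPM there. KO 2 thus lay between control 3 and the other libraries in both sums, and KO 3 was lowest for the adipocyte markers. The atrial light chain Myl7 was at 205 and 162 CPM in control 1 and 2, 127 CPM in KO 1, 1.15 and 0.219 CPM in KO 2 and KO 3 and 0 in control 3, and Bmp10 was at 0 in all 6. Of 6 tested markers of the atrial list that holds these genes, 5 were fitted lower and Nppa higher. Nppa was at 442, 572 and 108 CPM in control and 2419, 2350 and 3022 CPM in KO (log2 fold change 2.80, edgeR adjusted p = 0.0510). In bulk tissue fewer cells of a type and less RNA per cell cannot be told apart.

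By length-corrected level, the cytosolic Hsp70 Hspa8, which is made in unstressed cells, led the members with a mean of 820 FPKM over the 6 libraries. Hsp90ab1, the constitutive cytosolic Hsp90, was next at 443 FPKM. Hspb7 and Hspb8, small heat shock proteins of striated muscle, followed at 370 and 305 FPKM, ahead of Hspa5 at 281 and Hspa9 at 232 FPKM. The classical heat-inducible genes Hspa1a and Hspa1b were scarce, at 2.52 and 2.98 FPKM. The members together took 1.04% to 1.17% of the reads in the control libraries and 0.883% to 1.05% in those labelled KO. The highest library was 1.53 times the lowest at the median of the 56 members with a mean of at least 10 CPM. Dnajc5, the cysteine string protein of secretory vesicles, varied least (1.16 times) and Dnajc28 varied most (3.66 times). Dnajb8, Dnajc5b and Dnajc5g had 0 reads in all 6 libraries, which allows 0.0839 to 0.147 CPM (3 reads, counting error only). Those 3, with Dnajb3, Dnajb7, Dnajb13, Dnajc22 and Hspb9, were too low for the test, which covered the remaining 64.

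Fitted levels were lower in the libraries labelled KO for 46 of the 64 tested members, among them the mitochondrial chaperones Hspd1, Hspe1 and Hspa9. They were higher for 18, among them the cytosolic Hsp90aa1 and Hspa1b and Dnajc10 of the endoplasmic reticulum. Of all 14466 genes tested, 7089 were fitted lower and 7377 higher. No member passed edgeR's quasi-likelihood test after Benjamini-Hochberg adjustment over all genes, against 3.70% of the 14466 genes tested that passed in either direction. At an unadjusted p under 0.05, 5 members were higher in the libraries labelled KO (12.3% of all genes) and 15 were lower (13.5% of all genes). The 3 libraries labelled KO all lay above the 3 controls for 8 members (16.4% of all genes) and all lay below them for 11 (14.5% of all genes), shares close to those of the background. The fitted log2 fold change (KO over control) had a median of -0.24 over the members against 0.01 over all genes, and ran from -1.16 for Hspb3 to 0.77 for Hspa1b. Without control 1 the members' median was -0.13. With library totals only, or with limma on either pseudocount, 38 of the 64 were fitted lower, with medians of -0.12 to -0.13 where all genes stood at 0.09 to 0.13. DESeq2 called 2 of 66 members higher (7.16% of all genes) and 11 lower (8.29% of all genes). Limma on log2(FPKM + 1) called 0 higher and 1 lower (5.39% of all genes in either direction), and with a pseudocount of 0.1 it called 0 in either direction (2.55% of all genes). Without control 3, edgeR called 2 of 66 members higher (11.6% of all genes) and 18 lower (12.9% of all genes). Without any other single library it called 0.

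**Figure D1:**
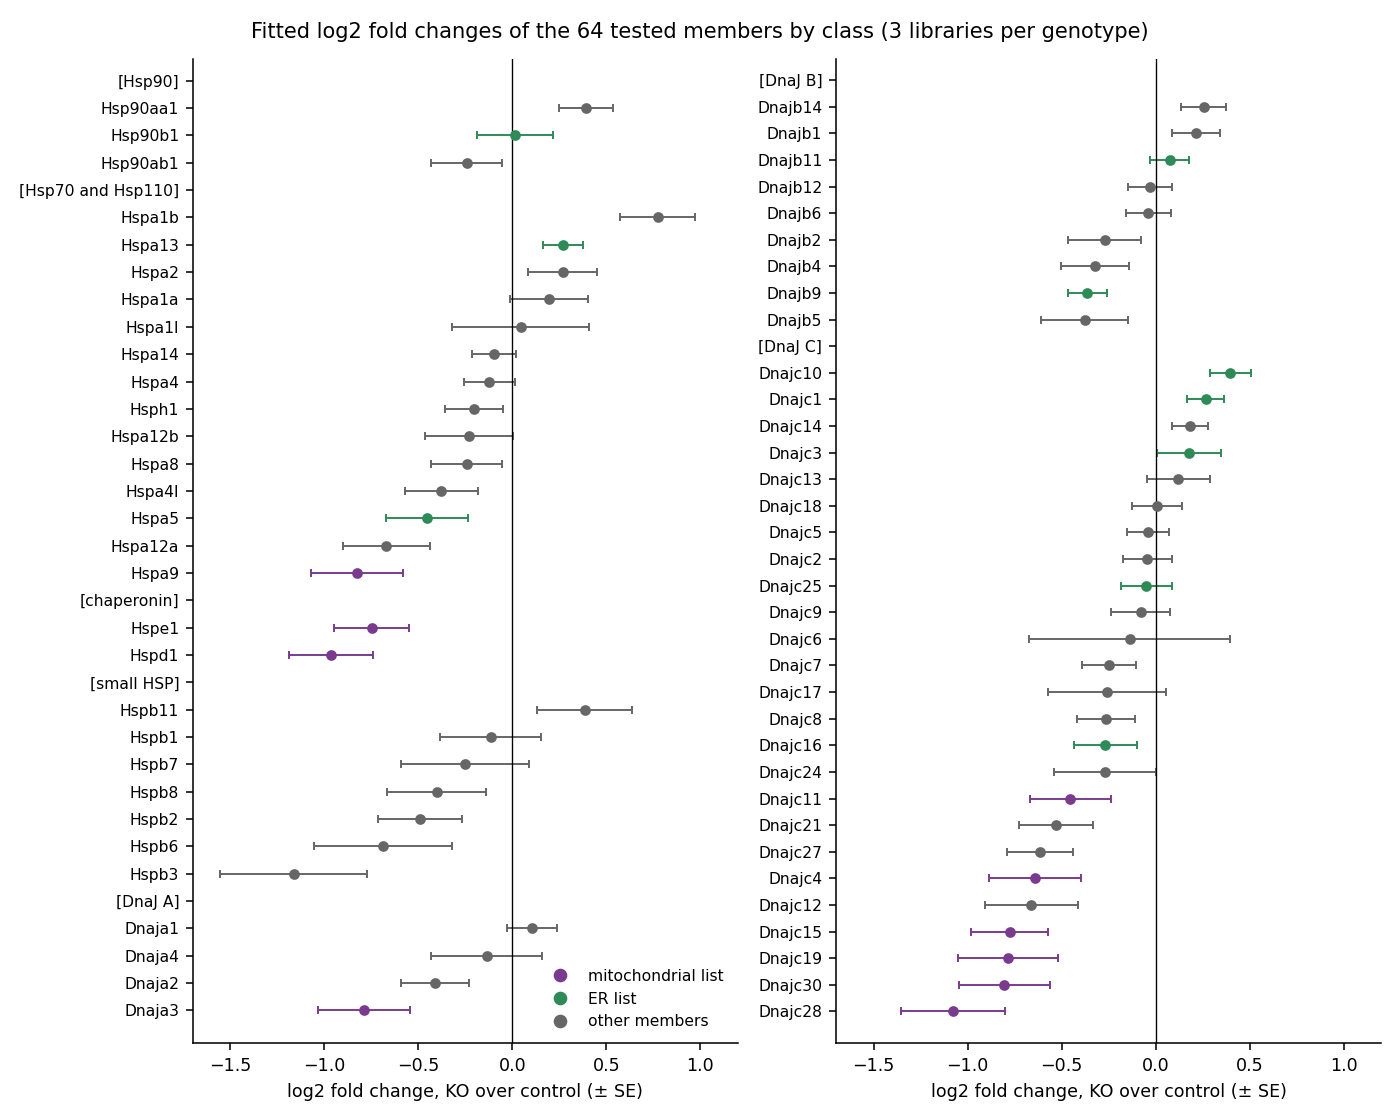
Log2 fold change (KO over control) with its standard error for the 64 tested members, arranged by class on the vertical axis, with the mitochondrial list in purple and the endoplasmic reticulum list in green. Most points lie left of 0, from -1.16 for Hspb3 to 0.77 for Hspa1b, and no member passed the test.

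The mitochondrial members lay lowest as a group. All 10 were fitted lower in the libraries labelled KO, with a median log2 fold change of -0.79 (range -1.08 to -0.45) against -0.13 over the 54 tested members outside that list. For 8 of the 10, each library labelled KO lay below each control library (14.5% of all genes), and 9 had an unadjusted p under 0.05 (13.5% of all genes). None passed edgeR's test after adjustment, while DESeq2 called 8 of them lower (8.29% of all genes), and edgeR without control 3 called 9 (12.9% of all genes). Their summed level was 2215, 2186 and 1470 CPM in control 1, 2 and 3 and 1285, 840 and 1165 CPM in the libraries labelled KO 1, 2 and 3. KO 2 was the lowest library and control 3 the lowest of the controls, which also held for the cardiomyocyte markers. The median log2 fold change of the list ran from -0.63 without KO 2 to -0.96 without control 3 when a library was left out, and was -0.89 without KO 1, the library whose Nmrk2 reads went against its label. That marker list had its median at 0.78, 0.73, -0.01, -0.26, -1.09 and -0.20 (log2, each gene relative to its mean over the 6 libraries, control 1 to 3 and then KO 1 to 3), beside 0.60, 0.62, 0.02, -0.18, -0.71 and -0.24 for the mitochondrial members. The part of cardiomyocyte content in these values was not tested.

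**Figure D2:**
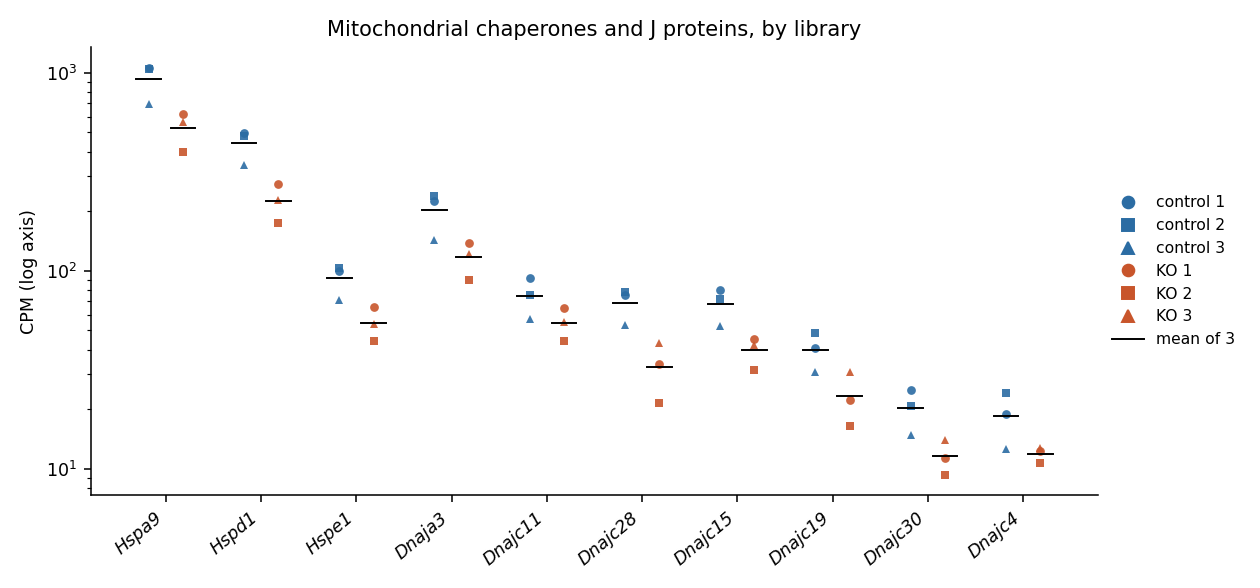
CPM (log axis) of the 10 mitochondrial members in each library, with bars at the mean of 3. Control libraries lie above those labelled KO for 8 members, with KO 2 lowest for each of the 10, and the groups overlap for Dnajc11 and Dnajc4.

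Hspd1, the Hsp60 subunit of the chaperonin, was at 498.9, 478.6 and 342.2 CPM in control 1, 2 and 3 and at 273.8, 174.1 and 228.1 CPM in KO 1, 2 and 3. The groups did not overlap, and the lowest control library was control 3. Its log2 fold change was -0.97 (SE 0.22), with an edgeR adjusted p of 0.0662, the smallest among the members. Over the alternatives the change ran from -0.81 to -1.13 and the adjusted p from 0.000785 in DESeq2 to 0.228. Hspe1, the Hsp10 lid of the same chamber, whose promoter stretch is shared with Hspd1, was at 99.8, 103.2 and 71.3 CPM in control and 65.4, 44.1 and 53.8 CPM in KO. It was ordered like Hspd1 in the libraries labelled KO, again without overlap between the groups (log2 fold change -0.75, SE 0.20, edgeR adjusted p = 0.0849). Hspa9, the mitochondrial Hsp70 that drives import and folding, was at 1060, 1048 and 693 CPM in control and 617, 398 and 564 CPM in KO. Its highest library labelled KO lay below control 3, with a log2 fold change of -0.83 (SE 0.25, edgeR adjusted p = 0.0984).

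The J proteins of the mitochondrial list were also fitted lower, Dnajc28 the most and Dnajc11 the least. Dnaja3, the matrix J protein also called Tid1, was at 225, 237 and 143 CPM in control and 138, 90.1 and 122 CPM in KO (log2 fold change -0.79, SE 0.24, edgeR adjusted p = 0.105). KO 1 lay just below control 3 and the groups did not overlap. Dnajc15 and Dnajc19 are inner membrane J proteins of the import motor. Dnajc15 was at 79.8, 71.6 and 52.4 CPM in control and 45.4, 31.7 and 42.0 CPM in KO (log2 fold change -0.78, edgeR adjusted p = 0.0807). Dnajc19 was at 40.6, 48.4 and 31.0 CPM in control and 22.3, 16.5 and 30.9 CPM in KO, so that control 3 and KO 3 were almost level (log2 fold change -0.79, edgeR adjusted p = 0.125). Its locus overlaps Fxr1, and reads of overlapping genes may not be separable, since no source used here tells whether counting used strand. Dnajc28 had the lowest fold change of the list, with 75.4, 78.4 and 53.4 CPM in control and 33.7, 21.4 and 43.1 CPM in KO (log2 fold change -1.08, SE 0.28, edgeR adjusted p = 0.0764). Every library labelled KO was below control 3. Dnajc30, a J protein of the inner membrane linked to ATP synthase, was at 24.9, 20.9 and 14.8 CPM in control and 11.3, 9.32 and 13.99 CPM in KO (log2 fold change -0.81, edgeR adjusted p = 0.1001), and its locus overlaps Wbscr22. Dnajc11, which sits at the outer membrane near the cristae-organising complex, had a smaller difference and overlapping groups, with 56.8 to 92.0 CPM in control and 44.3 to 64.9 CPM in KO (log2 fold change -0.45, edgeR adjusted p = 0.237).

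In the cytosol the 2 Hsp90 genes had values of opposite sign. Hsp90aa1 (gene ID 15519, chromosome 12 from 110691036 to 110696395), the more inducible form, was at 295.9, 236.5 and 234.2 CPM in control 1, 2 and 3 and at 359.0, 328.1 and 319.0 CPM in KO 1, 2 and 3. Each library labelled KO was above each control library (log2 fold change 0.39, SE 0.14, edgeR adjusted p = 0.148). Hsp90ab1 was at 1430, 1249 and 1014 CPM in control and 1165, 973 and 982 CPM in KO, with overlap between the groups (log2 fold change -0.24, SE 0.19, edgeR adjusted p = 0.453). The ratio of Hsp90aa1 to Hsp90ab1 reads was 0.207, 0.189 and 0.231 in control and 0.308, 0.337 and 0.325 in KO. The lowest ratio in the libraries labelled KO exceeded the highest in control (two-sided exact permutation p = 0.1, the smallest that 3 against 3 allows, and 0.12 adjusted over the 6 ratios computed).

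Hspa8 had differences like those of Hsp90ab1, with 2177, 1887 and 1673 CPM in control and 1818, 1444 and 1582 CPM in KO (log2 fold change -0.24, SE 0.19, edgeR adjusted p = 0.451). KO 2 and KO 3 lay below the lowest control library and KO 1 lay within the control range. Without control 1 the log2 fold changes were -0.14 for Hspa8 and -0.12 for Hsp90ab1. The ratio of Hspa9 to Hspa8 reads, mitochondrial over cytosolic Hsp70, was 0.487, 0.556 and 0.414 in control and 0.340, 0.276 and 0.356 in KO (two-sided exact permutation p = 0.1, adjusted 0.12). The ratio of Hspd1 to Tcp1, a subunit of the cytosolic chaperonin TRiC, was 1.66, 1.62 and 1.48 in control and 1.12, 0.806 and 0.946 in KO, with the same p-values from that exact permutation test. Within the mitochondrial chaperonin the ratio of Hspd1 to Hspe1 reads was 4.64 to 4.997 in control and 3.95 to 4.24 in KO, also without overlap (exact permutation p = 0.1, adjusted 0.12). The ratio of Hspa9 to Hspa5 overlapped between the groups (exact permutation p = 0.3). None of the 6 ratios is corrected for length, and all were chosen after the values had been seen.

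**Figure D3:**
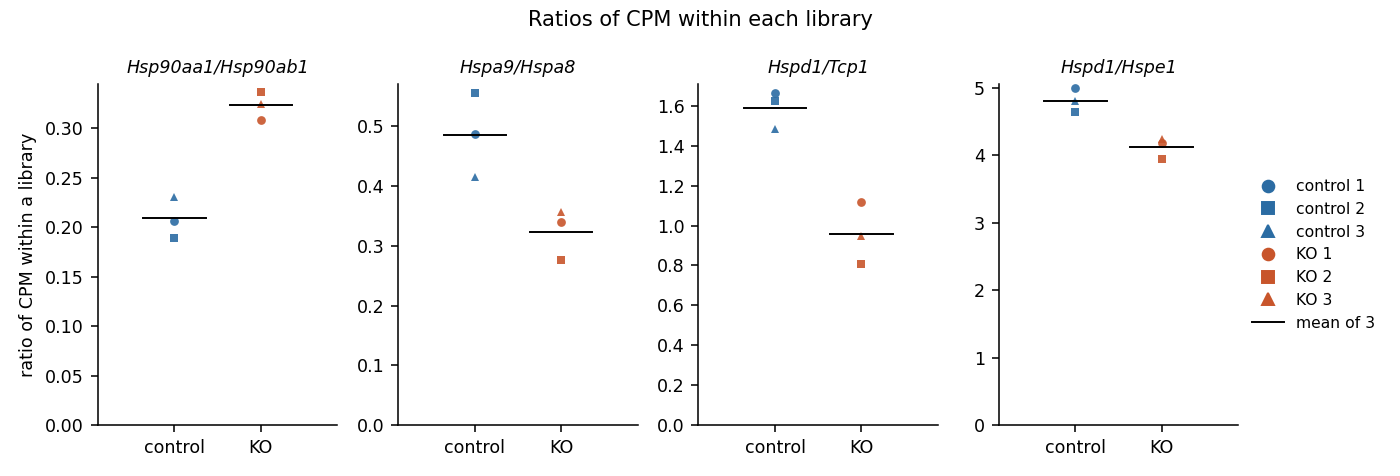
Ratios of CPM within each library for pairs of members and for Hspd1 over Tcp1, with each library as a point. The Hsp90aa1/Hsp90ab1 ratio is 0.189 to 0.231 in control and 0.308 to 0.337 in the libraries labelled KO, and the Hspd1/Tcp1 ratio is 1.48 to 1.66 and 0.806 to 1.12.

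Hspa1b (gene ID 15511, chromosome 17 from 34956429 to 34959238), the heat-inducible Hsp70, had the highest fold change of the tested members. Its level was 5.10, 6.50 and 6.98 CPM in control and 10.02, 11.5 and 10.2 CPM in KO (log2 fold change 0.77, SE 0.20, edgeR adjusted p = 0.0764). The groups did not overlap, at a level of at most 11.5 CPM. Its near-identical neighbour Hspa1a was at 7.21, 6.70 and 6.09 CPM in control and 7.32, 8.96 and 6.57 CPM in KO, with overlap (log2 fold change 0.19, edgeR adjusted p = 0.599). The ratio of Hspa1b to Hspa1a reads, also among the 6 ratios computed, was 0.707, 0.971 and 1.15 in control and 1.37, 1.29 and 1.56 in KO. It did not overlap between the groups (two-sided exact permutation p = 0.1, adjusted 0.12). No source used here tells how reads that fit both genes were divided, and the separate values and their ratio are therefore uncertain. Summed, the pair was at 12.3, 13.2 and 13.1 CPM in control and 17.3, 20.5 and 16.8 CPM in KO (log2 fold change 0.50, SE 0.14, edgeR adjusted p = 0.0906), with all libraries labelled KO above all controls.

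A list of 14 genes that Hsf1 can raise was split in sign. It also holds Hspa8 and Hsp90ab1, which unstressed cells make too, and the mitochondrial Hspd1 and Hspe1, its lowest values, so its median is not that of strictly inducible genes. Of the 14, 5 were fitted higher and 9 lower, with a median log2 fold change of -0.17, and none passed edgeR's test. Dnajb1, the principal stress-inducible Hsp40, was at 29.1, 24.7 and 24.9 CPM in control and 29.2, 28.8 and 33.5 CPM in KO (log2 fold change 0.22, edgeR adjusted p = 0.331). Control 1 and KO 1 were level, and the other libraries labelled KO were near or above them. Dnaja1, its type A counterpart, was at 65.2 to 83.2 CPM in control and 73.3 to 88.3 CPM in KO (log2 fold change 0.10, edgeR adjusted p = 0.665). Dnaja4 was at 107, 102 and 51.6 CPM in control and 87.2, 61.3 and 88.5 CPM in KO, with control 3 the lowest of all (log2 fold change -0.14, edgeR adjusted p = 0.804), and its sign changed in 4 alternatives. Dnajb4, a cytosolic J protein, was at 90.2, 105 and 131 CPM in control and 84.1, 74.9 and 102 CPM in KO (log2 fold change -0.32, edgeR adjusted p = 0.313), and its log2 fold change was -0.16 without control 3. Among type A proteins outside the list, the cytosolic Dnaja2 was at 295, 271 and 211 CPM in control and 197, 165 and 222 CPM in KO (log2 fold change -0.41, SE 0.18, edgeR adjusted p = 0.205). KO 3 lay above control 3 there.

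The endoplasmic reticulum members were split. Of 10, 6 were fitted higher and 4 lower in the libraries labelled KO, with a median log2 fold change of 0.04 and no call. Hspa5 (BiP), the Hsp70 of this compartment, was at 827, 771 and 932 CPM in control and 802, 547 and 496 CPM in KO (log2 fold change -0.46, SE 0.22, edgeR adjusted p = 0.238). KO 1 lay within the control range and KO 2 and KO 3 lay below it. Hsp90b1 (Grp94) was at 476, 447 and 630 CPM in control and 612, 530 and 427 CPM in KO, a log2 fold change of 0.02 (edgeR adjusted p = 0.973) whose sign depended on the setting. The stress element shown above for Hspa5 was also found at Hsp90b1 and Dnajc3. Dnajc3, an inhibitor of the kinase PERK and a cochaperone of BiP, was at 128 to 184 CPM in control and 152 to 181 CPM in KO (log2 fold change 0.18, edgeR adjusted p = 0.551).

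Several J proteins and a relative of Hsp70 also work in or at the reticulum. Dnajc10 (gene ID 66861, chromosome 2 from 80315466 to 80354055), a disulfide reductase that helps degrade misfolded protein, was at 109, 125 and 122 CPM in control and 157, 160 and 152 CPM in KO. The gap between the groups was wider than the range within either (log2 fold change 0.40, SE 0.11, edgeR adjusted p = 0.0896). Dnajb9, which restrains the sensor IRE1 together with BiP, was at 41.6, 39.6 and 41.6 CPM in control and 32.4, 30.0 and 33.1 CPM in KO. All libraries labelled KO were below the controls (log2 fold change -0.36, SE 0.10, edgeR adjusted p = 0.0926). Dnajc1, a membrane J protein at the ribosome, was at 41.8, 38.3 and 40.9 CPM in control and 49.1, 48.5 and 47.9 CPM in KO, higher without overlap (log2 fold change 0.27, edgeR adjusted p = 0.153), at a locus that overlaps Mllt10. Hspa13, a Hsp70-like ATPase of microsomes, was at 51.9, 59.1 and 58.1 CPM in control and 69.1, 70.4 and 64.3 CPM in KO, also higher without overlap (log2 fold change 0.27, edgeR adjusted p = 0.169). Dnajb11, a cochaperone of BiP, was at 73.7 to 81.7 CPM in control and 78.5 to 87.2 CPM in KO (log2 fold change 0.07, edgeR adjusted p = 0.687). Dnajb14, a J protein of the reticulum membrane that the list does not hold, was at 15.2 to 16.9 CPM in control and 18.6 to 19.3 CPM in KO, without overlap (log2 fold change 0.26, edgeR adjusted p = 0.228). Dnajb12, also of that membrane and off the list, had means of 39.7 CPM in control and 38.9 CPM in KO (log2 fold change -0.03, edgeR adjusted p = 0.901). Dnajc16 and Dnajc25 of the list were fitted lower with overlap (log2 fold changes -0.27 and -0.05, edgeR adjusted p = 0.352 and 0.852). The marker lists given above moved between the same libraries, and their part in these values was not tested.

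**Figure D4:**
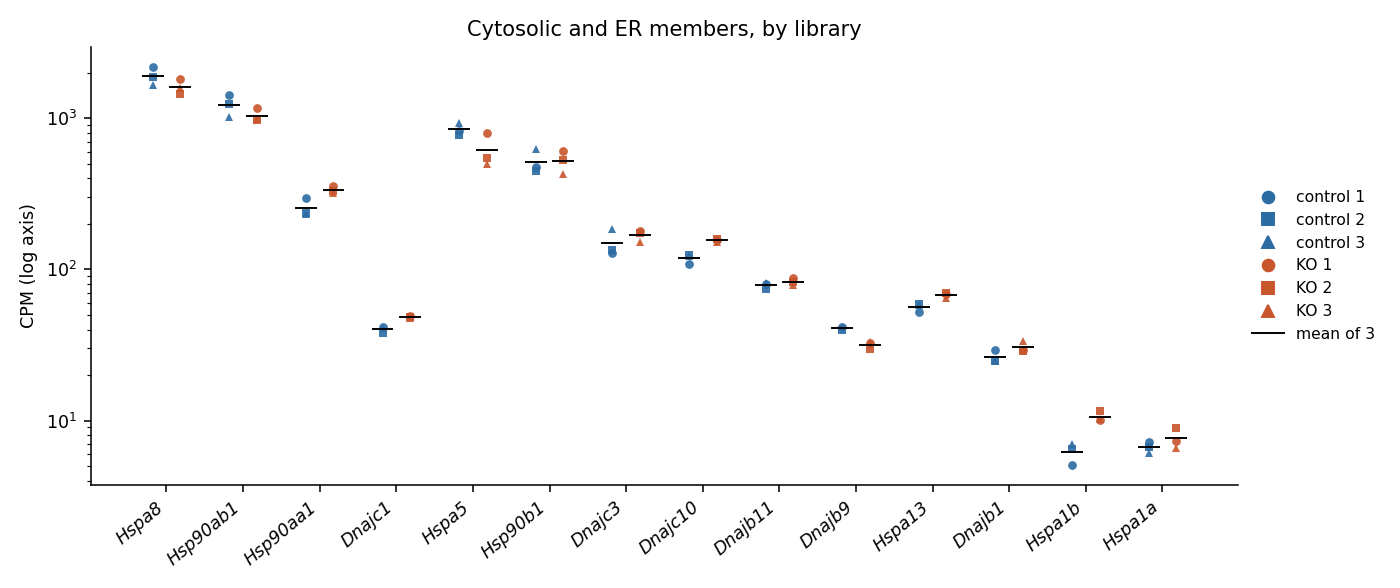
CPM (log axis) of cytosolic and endoplasmic reticulum members in each library, with bars at the mean of 3. Hsp90aa1, Hspa1b and Dnajc10 lie higher and Dnajb9 lower in the libraries labelled KO without overlap, and the groups overlap for Hspa8, Hsp90ab1, Hspa5 and Hsp90b1.

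The groups overlapped for each small heat shock protein tested except Hspb11, a protein of intraflagellar transport at 3.12 to 3.92 CPM in control and 4.13 to 4.90 CPM in KO (log2 fold change 0.38, edgeR adjusted p = 0.376). Of 7 tested, 6 were fitted lower, with a median log2 fold change of -0.40, and none passed edgeR's test. Hspb7, a cardiovascular form that binds filamin and sarcomere proteins, was at 1476, 1307 and 665 CPM in control and 1037, 688 and 1171 CPM in KO. Control 3 was the lowest of the 6 libraries (log2 fold change -0.25, SE 0.34, edgeR adjusted p = 0.681), and leaving out a library moved the change between -0.53 and -0.03. Hspb8, which works with Bag3 in selective autophagy, was at 795, 705 and 451 CPM in control and 517, 373 and 586 CPM in KO (log2 fold change -0.40, edgeR adjusted p = 0.379). Hspb6, a partner of contractile proteins also called Hsp20, was at 264, 236 and 115 CPM in control and 163, 81.9 and 136 CPM in KO (log2 fold change -0.69, SE 0.37, edgeR adjusted p = 0.287). In both, control 3 lay within the range of the libraries labelled KO. Hspb1 (Hsp27), which protects actin filaments, was at 165, 127 and 76.5 CPM in control and 117, 99.2 and 123 CPM in KO (log2 fold change -0.11, edgeR adjusted p = 0.824), and its sign changed in 4 alternatives. Hspb3, a muscle form that pairs with Hspb2, had the lowest fold change of the tested members. Its level was 12.4, 14.3 and 5.56 CPM in control and 6.22, 4.42 and 3.72 CPM in KO (log2 fold change -1.16, SE 0.39, edgeR adjusted p = 0.125), with control 3 below KO 1.

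The lists were also set side by side library by library, as had been done above for the mitochondrial members and the cardiomyocyte markers. The median of the small heat shock proteins, relative to each gene's mean, was 0.52, 0.37 and -0.29 in control 1, 2 and 3 and 0.03, -0.57 and 0.06 in KO 1, 2 and 3 (log2). That of the inducible genes was 0.29, 0.13 and -0.16 in control and 0.05, -0.24 and -0.09 in KO. The endoplasmic reticulum list stayed between -0.09 and 0.16 in all 6 libraries. KO 2 was the lowest library for 33 of the 64 tested members, against 23.8% of all genes. Control 1 was the highest for 27 of the 64, against 22.3% of all genes.

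**Figure D5:**
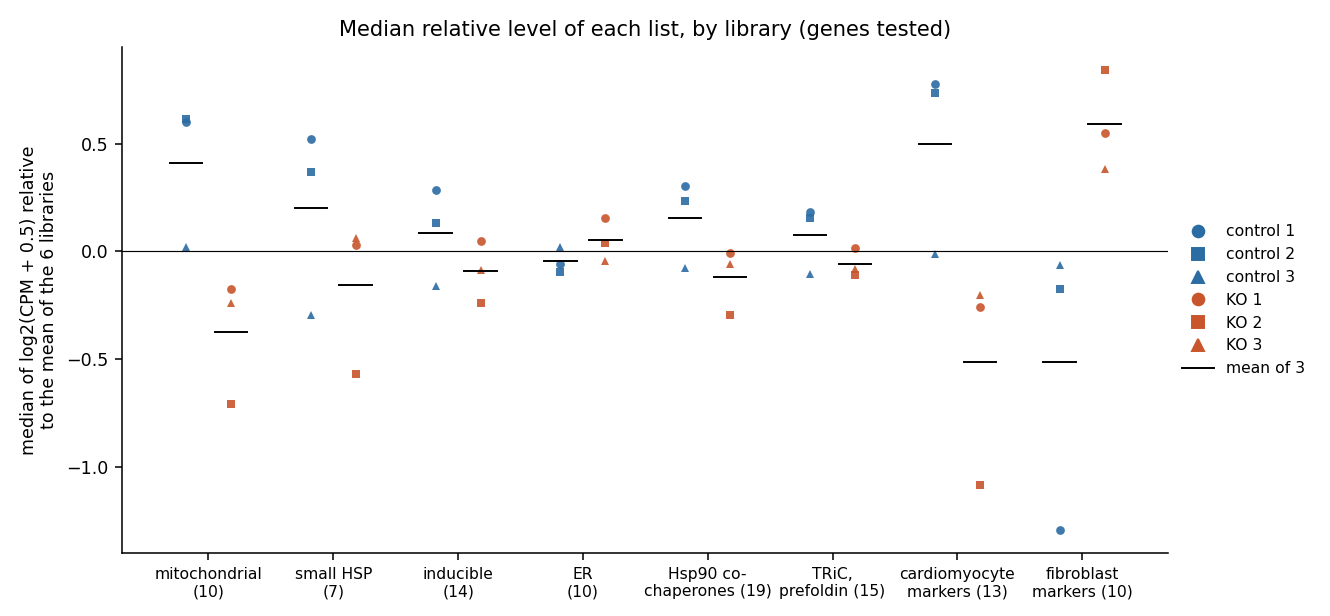
Median relative level (log2, each gene against its mean over the 6 libraries) of 4 member lists, 2 lists of partner genes and the cardiomyocyte and fibroblast markers, with 1 point per library. The mitochondrial list runs from 0.62 in control 2 to -0.71 in KO 2, the cardiomyocyte markers from 0.78 to -1.09, and the endoplasmic reticulum list stays between -0.09 and 0.16.

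Among other members, Hspa12a, a distant relative of Hsp70, was at 51.4, 56.3 and 35.9 CPM in control and 31.0, 22.7 and 36.5 CPM in KO (log2 fold change -0.67, SE 0.23, edgeR adjusted p = 0.133). KO 3 lay just above control 3, and the locus overlaps Eno4. Dnajb5, a relative of Dnajb1, was at 44.7, 46.0 and 26.9 CPM in control and 32.6, 25.1 and 33.0 CPM in KO (log2 fold change -0.38, edgeR adjusted p = 0.347). Dnajb6, which keeps aggregation-prone proteins soluble and is mutated in a limb-girdle muscular dystrophy, was level at gene scale, with 53.6 to 58.1 CPM in control and 50.5 to 62.0 CPM in KO (log2 fold change -0.04, edgeR adjusted p = 0.868). Its reads were divided differently among transcripts. The transcript of 2708 bases held 77.2%, 45.8% and 35.8% of them in control 1, 2 and 3 and 80.1%, 76.0% and 81.0% in KO 1, 2 and 3, while that of 1645 bases held 10.4%, 53.8% and 57.2% and then 8.202%, 10.9% and 17.2%. Control 1 lay with the libraries labelled KO. This gene was chosen for its transcripts after the values had been seen, and no source used here tells how reads were assigned to isoforms.

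Genes that work with the members were counted on 5 lists of 67 genes, of which 63 were tested. EdgeR's test called 0 of them after adjustment (3.70% of all genes). At an unadjusted p under 0.05, 0 were higher and 13 lower (12.3% and 13.5% of all genes). The median log2 fold change was -0.19, with 16 fitted higher and 47 lower, against 7377 and 7089 of all genes. DESeq2 called 0 higher and 9 lower (7.16% and 8.29% of all genes), and limma on log2(FPKM + 1) called 0 higher and 1 lower (5.39% of all genes in either direction). Without control 3, edgeR called 1 higher and 15 lower (11.6% and 12.9% of all genes). Fkbp4, an Hsp90 cochaperone of steroid receptors, was at 353, 324 and 210 CPM in control and 151, 81.7 and 104 CPM in KO. It lay lower in each library labelled KO, just short of the threshold (log2 fold change -1.40, SE 0.29, edgeR adjusted p = 0.0502). Fkbp5, its counterpart on the same receptors, had a log2 fold change of 0.23 (edgeR adjusted p = 0.648). The myosin chaperone Unc45b and the muscle methyltransferase Smyd1, which act with Hsp90 on myosin, had log2 fold changes of -0.89 and -0.99 (edgeR adjusted p = 0.0897 and 0.125). Grpel1, the nucleotide exchange factor of Hspa9, was at -0.71 (edgeR adjusted p = 0.121), and Bag5, an exchange factor in the cytosol, was at 0.24 (edgeR adjusted p = 0.417). Pfdn6 of prefoldin, which hands actin and tubulin to TRiC, was at -0.76 (edgeR adjusted p = 0.0906) and Pfdn4 of the same complex at 0.13 (edgeR adjusted p = 0.838). Cryab, a small heat shock protein under another name, was at -0.60 (edgeR adjusted p = 0.294). The collagen chaperone Serpinh1 was at 0.72 with a wide error (SE 0.46, edgeR adjusted p = 0.369). Hsf1 itself was at 24.7 ± 4.91 CPM in control and 19.9 ± 3.23 CPM in KO (SD, n = 3 libraries each), a log2 fold change of -0.31 (edgeR adjusted p = 0.373), and Hsf2 was at -0.33 and the inhibitor Hsbp1 at -0.09 (edgeR adjusted p = 0.240 and 0.721). Unc45b, Smyd1, Tcp1 and Hsf1 were named after their values had been seen.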

How the data were processed

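Libraries were stranded and made from total RNA, per the labels' protocols. Bowtie2, HISAT2 and the build mm10 appear in the submitters' processing notes with neither version nor role, and no source used here names the counting program or its use of strand. Whole-number read counts and FPKM values of 36780 RefSeq transcripts in each library were deposited by the authors in a single table, per the file headers. Counts were summed per gene symbol, scaled with TMM, filtered with filterByExpr and tested with edgeR 4.0.16 (quasi-likelihood test, Benjamini-Hochberg adjustment over 14466 genes, threshold 0.05) in R 4.3.3. Since no label ties libraries to separate animals, p-values cover the spread among these 6 libraries alone, which may be technical. Control columns are those whose names begin with C and KO columns those with KO.

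Alternatives were RLE scaling, library totals only, no filter or a mean of at least 5 CPM, a block for the library number, DESeq2 1.42.0, limma 3.58.1 on log2(FPKM + 1) or log2(FPKM + 0.1), single transcripts and leaving out each library. Summing Hspa1a with Hspa1b was added after seeing the data. Relative levels used log2(CPM + 0.5). On simulated counts of 14466 genes in 3 against 3 libraries, edgeR recovered 37 of 100 genes changed 2-fold and 91 of 100 changed 4-fold and called 4 unchanged genes. Intervals from a count of 0 (3 reads) cover counting error only, and the depth behind all values is 22377348 to 33086384 reads a library.

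The members and lists were chosen with earlier results of these data known. Named members were, in each class, the 2 with the highest FPKM and the 2 highest and 2 lowest fold changes at a mean of at least 5 CPM, with list members at a mean of at least 50 CPM open to naming; of each list of partner genes, the highest and the lowest fold change at the same minimum of 5 CPM. Members outside this rule (Hspa1a, Hspb11, Dnajb6, Dnajb12, Dnajc5, Dnajc16, Dnajc25 and those given only as counts or without a fold) were named after their values had been seen. Promoter sequences are from RefSeq (GRCm38.p6).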

Additional observations from a re-analysis of the deposited data

How the results depend on the processing

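Of 481 log2 fold changes of the 32 named members under the alternatives, 439 kept their direction and side of the threshold, 29 kept their direction and passed the threshold and 13 changed sign; 29 of these members kept their direction in each alternative run. The 13 belonged to 3 members with changes near 0, and the cause was not tested. Dnaja4 was at 0.02 with limma on either pseudocount (0.0158 and 0.0175) and ran from -0.40 to 0.04 (0.0379 without control 1, 0.0167 without KO 2) over the fits that leave out a library. Hsp90b1 was at -0.0069 with RLE and -0.0021 with DESeq2 and ran from -0.11 to 0.18 over the fits that leave out a library (-0.0410, -0.0800 and -0.1133 without control 1, control 2 and KO 1). Hspb1 was at 0.0139 with library totals, 0.0499 and 0.0505 with limma, and ran from -0.36 to 0.16 (0.1568 without control 1). Leaving out a library moved the fold change by over 1.5 times, with no change of sign, for 11 others: Dnaja1 (0.02 to 0.19), Dnajb1 (0.13 to 0.30), Dnajb11 (0.03 to 0.10), Dnajb4 (-0.46 to -0.16), Dnajb5 (-0.59 to -0.25), Hsp90ab1 (-0.36 to -0.12), Hspa5 (-0.69 to -0.33), Hspa8 (-0.34 to -0.14), Hspb6 (-0.98 to -0.45), Hspb7 (-0.53 to -0.03) and Hspb8 (-0.61 to -0.23). Counts of members called lower, 0 in the reported fit, were 1 with library totals, 11 with DESeq2 and 1 with limma on log2(FPKM + 1), and 0 to 18 when a library was left out, the 18 without control 3. Members called higher were 2 with DESeq2 and 0 to 2 when a library was left out. For partner genes the count called lower was 1 with library totals, 1 at a mean of at least 5 CPM, 9 with DESeq2, 1 with limma on log2(FPKM + 1) and 0 to 15 when a library was left out, and the count called higher was 0 to 1. Over all genes the calls were 535 with all libraries, 3628 when control 3 was left out and 3 to 88 when any other library was. Limma on log2(FPKM + 0.1) moved the median log2 fold change of all genes to 0.13 and that of the members to -0.13. Library numbers did not pair the libraries: same-numbered control and KO libraries had correlations of their deviations of 0.307, -0.330 and -0.352. The highest such correlation between a control and a KO library was 0.582, for control 3 and KO 2. The fit with the library number as a replicate block called 6 genes in all and 0 members or partner genes, so the block moved no count of members. Groups of 3 against 3 limit the smallest exact permutation p to 0.1, and members under about 1 CPM fell below the filter of the reported fit. Without a filter 69 members were tested and 0 were called.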
